A study of Mus musculus with 8 samples.

Results

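The genes of the NF-kB transcription factor subunits and of their inhibitors were examined in regulatory T (Treg) cells of WT and Flcn KO origin by ATAC-seq, which counts transposase insertions in open DNA. Peaks were assigned to genes by position alone, while the list of genes was chosen with earlier results of these data known. A peak belonged to Rel, Rela, Relb, Nfkb1, Nfkb2, Nfkbia, Nfkbiz, Nfkbid, Tnfaip3 or Traf1 when no other protein-coding gene's span was nearer and the distance was at most 50000 bp. This gave 92 of the 57199 peaks in the table, spread over all 10 genes. The cells came from the spleens of mixed bone-marrow (BM) chimeric mice and were sorted as CD45.2+, CD45.1-, CD4+ and Foxp3-YFP+; CD45 is a leukocyte surface protein whose variants mark the donor. One group is WT. The other is Flcn KO, from Foxp3Cre Flcnfl/fl donors, in which a Cre recombinase driven from Foxp3 acts on a floxed Flcn gene in Foxp3-expressing cells. Each group had 4 libraries, called biological replicates in the labels, which give no age, no deleted exon and not whether the WT donors carry the Cre. Cells were sorted by Foxp3-YFP, and whether this YFP and the Cre are parts of the same allele was not checked here. Whether presence of the Cre differs between the groups along with loss of Flcn is therefore not known, and the 2 cannot be told apart on these labels. A mixed chimera also holds cells of another origin.

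Total counts were between 2723344 and 5111728 per library, the lowest in Flcn KO replicate 4. Of 4 peaks at Flcn itself 2 were tested, with log2 fold changes of −0.28 and −0.57 (adjusted p = 0.679 and 0.463), which does not check the genotype. Peaks of 7 Treg and T cell marker genes summed to between 1255 and 1504 CPM (a count relative to its TMM-scaled library size, which corrects for depth and composition) in every library. The other marker lists stood at 10.3 to 37.8 CPM in WT and 8.95 to 47.2 CPM in Flcn KO, other than the NK cell list (213 to 247 CPM in WT, 224 to 304 CPM in Flcn KO). Ms4a1, Lyz2 and Csf1r had no assigned peak. The summed level of the erythroid genes Gata1 and Epor, over 4 peaks, did not overlap between the groups (19.7 to 25.4 CPM in WT, 31.3 to 41.3 CPM in Flcn KO), and its part in the results below was not tested.

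NF-kB factors are dimers built from Rel, Rela, Relb and the processed products of Nfkb1 and Nfkb2. In resting cells they are held in the cytoplasm by inhibitors such as the product of Nfkbia, and signals from the T cell receptor, its co-stimulators and tumour necrosis factor receptors lead to the breakdown of the inhibitor and entry of the dimer into the nucleus. Several of the inhibitor genes are themselves switched on by NF-kB, which closes a feedback loop. The family member encoded by Rel is known for its role in Treg cell development.

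At these genes a single site, beyond the 3′ end of Tnfaip3, was more accessible in Flcn KO, and no other tested peak passed the test in either direction. Of the 92 peaks, 90 passed the filter on low counts and 1 was called higher in Flcn KO, 0 were called lower and 89 were not called (edgeR quasi-likelihood test, Benjamini-Hochberg adjusted over all tested peaks, call at an adjusted p below 0.05). The share called was 1.11%, against 2.37% of all 47859 tested peaks (1.35% higher and 1.02% lower). DESeq2 and limma-voom called the same single peak, and the count was 2 without WT replicate 2 or without Flcn KO replicate 1. Of the 90 peaks, 12 (13.3%) had an unadjusted p below 0.05, 9 with a higher and 3 with a lower level in Flcn KO; over all tested peaks this share was 12.9% (6.87% higher, 5.99% lower). The libraries of the groups did not overlap at 4 of the 90 peaks (4.44%), against 7.59% of all tested peaks. The median log2 fold change, Flcn KO minus WT, was 0.08, with a median of 0.00 over all tested peaks. It lay between −0.5 and 0.5 at 72 of the 90 member peaks (80%) and at 80.3% of all tested peaks. In pooled cells, fewer cells open at a site and less opening per cell cannot be told apart. These shares describe the members against the whole table and are not tests of the list.

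**Figure D1:**
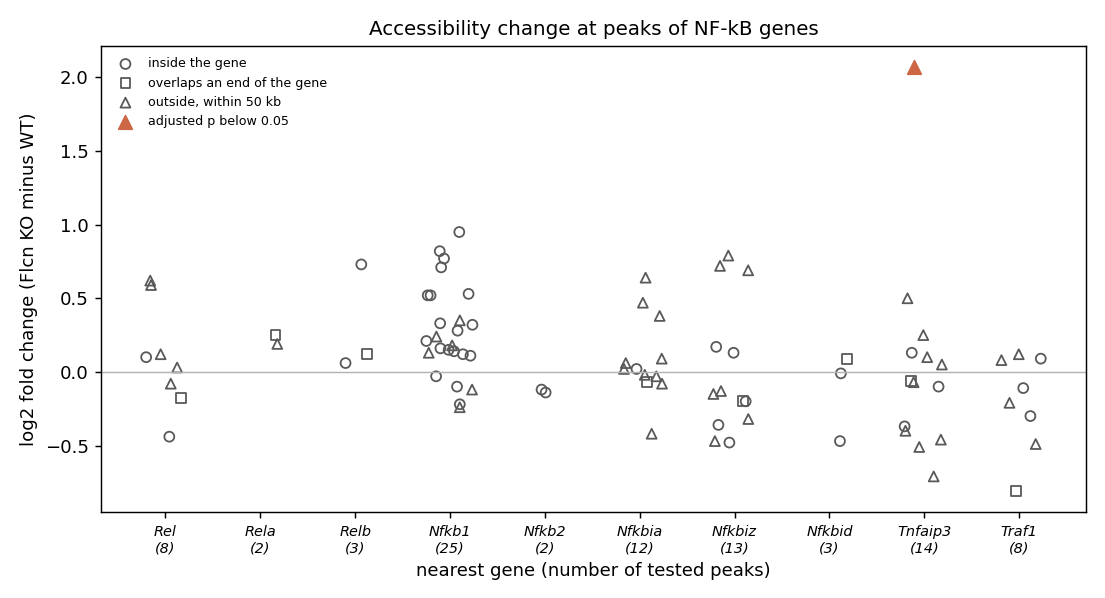
Log2 fold change (Flcn KO minus WT, y axis) of each tested peak, grouped by its nearest gene (x axis); circles lie inside the gene, squares overlap one of its ends, triangles lie outside it, and the filled triangle is called. One Tnfaip3 peak at 2.07 stands above all other peaks, which run from −0.81 to 0.95.

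The sequence just before the start of several of these genes is shown because several of these genes are known targets of NF-kB themselves. RefSeq start windows (GRCm38.p6, the assembly behind mm10) were listed for 7 of the 10 genes, with 12 starts in all; Nfkb1, Relb and Nfkbiz had none. The NF-kB consensus site, searched on both strands with overlapping matches counted, was found within 250 bases upstream of 7 of the 12 starts, at 5 of the 7 genes, and in 7.25% of the 32841 windows of all genes. Another common T cell motif, that of AP-1 (TGANTCA), was found in 2 of the 12 member windows and in 6.75% of all windows. The stretches below end at the last base before the start and run in the direction of transcription, with the matches in capitals. They are the minus strand of chr11:23770970-23771099 for Rel, of chr12:55492648-55492777 for Nfkbia and of chr10:19015411-19015540 for Tnfaip3, and the plus strand of chr19:46304607-46304736 for Nfkb2.
Rel: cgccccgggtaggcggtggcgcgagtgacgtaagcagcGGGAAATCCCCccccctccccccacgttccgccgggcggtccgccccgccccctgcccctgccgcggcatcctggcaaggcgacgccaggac
Nfkbia: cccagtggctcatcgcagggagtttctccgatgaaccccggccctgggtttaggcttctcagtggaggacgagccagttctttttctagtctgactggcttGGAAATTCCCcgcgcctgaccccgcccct
Tnfaip3: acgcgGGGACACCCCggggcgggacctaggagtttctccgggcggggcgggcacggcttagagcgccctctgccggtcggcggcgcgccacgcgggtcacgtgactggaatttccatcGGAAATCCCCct
Nfkb2: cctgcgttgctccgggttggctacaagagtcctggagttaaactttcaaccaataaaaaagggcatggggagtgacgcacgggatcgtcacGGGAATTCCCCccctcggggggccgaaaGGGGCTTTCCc
The match begins 92 bases before the start of Rel and 29 before that of Nfkbia. At Tnfaip3 the matches begin 125 and 12 bases before the start, and at Nfkb2 39 and 11 bases before it. In Rel and in the first Nfkb2 stretch, matches on opposite strands overlap by all but 1 base. The second listed start of Nfkbid, which encodes a nuclear inhibitor protein, has matches farther away, beginning 226 and 181 bases before it.
Nfkbid, chr7:30422170-30422199: gccccgccctGGGACTTCCCagagcaccac
Nfkbid, chr7:30422215-30422244: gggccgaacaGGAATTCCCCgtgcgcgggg
All 3 listed starts of Nfkb2 have a match, so this gene gives 3 of the 7 windows. The match begins 236 bases before the second start, which is not printed, and 225 bases before the third.
Nfkb2, chr19:46305695-46305724: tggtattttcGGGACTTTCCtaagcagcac
A match is a description of letters and not a measured binding site.

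A peak overlapped 11 of the 12 listed starts, and all 11 of these start peaks were tested; 0 were called by edgeR, DESeq2 or limma-voom, and 1, at Traf1, had an unadjusted p below 0.05. Over all tested peaks that overlap a listed start of their gene, 0.456% were called by edgeR and 7.2% had an unadjusted p below 0.05. Levels are compared between start peaks per kb of peak, in CPM per kb in WT (mean ± SD, n = 4). The Nfkbia start had the highest level, 150 ± 26.5, at percentile 95.7 of all tested peaks by mean level per kb. The first and the inner Tnfaip3 starts followed with 84.2 ± 10.9 and 71.6 ± 8.83, then Rel with 66.8 ± 5.46 and the second Nfkbid start with 59.3 ± 9.65. The ranges of neighbours among these last 4 overlapped, while every WT library at Nfkbia (at least 133) lay above every WT library at Tnfaip3 (at most 97.0). Traf1, the 2 Nfkb2 start peaks and the other two Nfkbid starts lay at 28.0 to 35.7, with overlapping ranges. Rela, which encodes the subunit most often paired with the Nfkb1 product, had the lowest start level, 10.8 ± 3.77, at percentile 19.3, over a peak 877 bp wide. In Flcn KO the Nfkbia start was again the highest, at 143 ± 13.5, and Rela the lowest, at 12.6 ± 3.04.

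**Figure D2:**
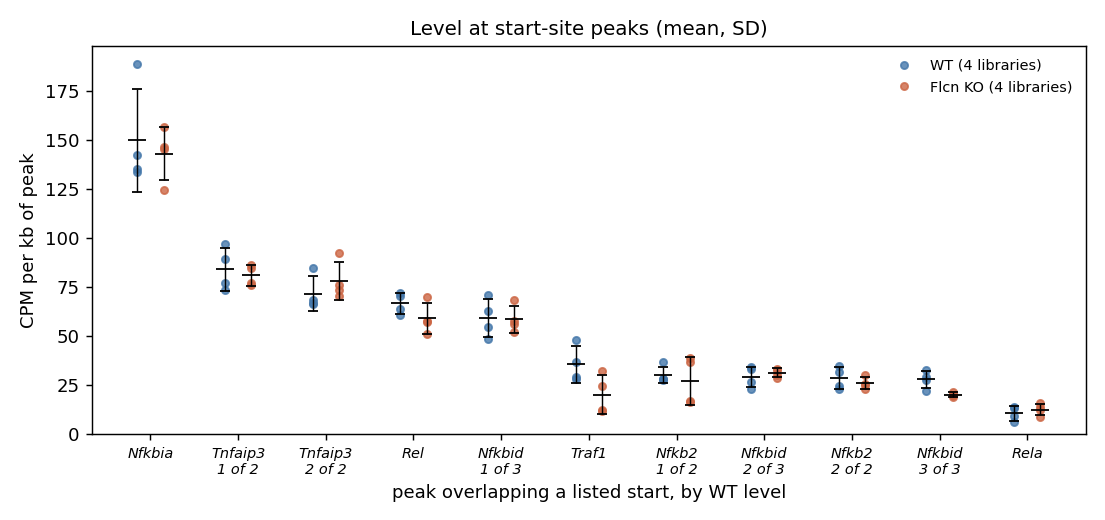
CPM per kb of peak (y axis) at the 11 peaks overlapping a listed start (x axis, ordered by WT level), with 1 point per library and bars for the mean and SD of 4 libraries per group. The Nfkbia start peak stands highest in both groups and Rela lowest, and at Traf1 the Flcn KO points extend below the WT points.

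Among the genes of the subunits, 0 of 40 tested peaks were called by edgeR, DESeq2 or limma-voom, and the 4 with an unadjusted p below 0.05 (10%, against 12.9% of all tested peaks) all had higher levels in Flcn KO. A log2 fold change above 0 was seen at 30 of these 40 peaks, with a median of 0.15; over all tested peaks 50.6% lay above 0. Most of them belong to Nfkb1, which encodes the precursor of the smaller subunit of the classical dimer and has 25 peaks over a span of 107315 bp (chr3:135584655-135691969). At Nfkb1, 20 of the 25 peaks lay above 0, with a median of 0.21 and a range of −0.24 to 0.95. Peaks of 1 gene share the same libraries and are not independent, so that this count has no test.

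The Nfkb1 peak with the lowest p lies inside the gene, 17.5 kb from its nearer end (chr3:135602178-135602404). It held 6.64, 6.47, 5.61 and 1.48 CPM in the WT libraries, in replicate order, and 10.4, 7.48, 9.45 and 12.6 CPM in Flcn KO. Every Flcn KO library was above every WT library, and WT replicate 4 was the lowest. The log2 fold change was 0.95 (SE 0.33, edgeR adjusted p = 0.132), which did not pass the test. The next peak along the gene, at 135602750, had 21.7 ± 5.86 CPM in WT and 27.1 ± 8.31 in Flcn KO (SD, n = 4; log2 fold change 0.33, SE 0.21). The next 3 had log2 fold changes of 0.21, 0.32 and 0.16, with overlapping groups. Another internal peak (chr3:135675491-135675884) had 13.9 ± 2.57 CPM in WT and 20.2 ± 4.31 in Flcn KO (0.52, SE 0.21, adjusted p = 0.243).

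The strongest Nfkb1 peak (chr3:135665605-135666295, inside the gene) was one of those below 0. It held 101, 114, 85.4 and 62.0 CPM in the WT libraries, in replicate order, and 88.8, 74.5, 71.4 and 77.7 in Flcn KO. WT replicate 4 was the lowest of all 8 libraries and the other WT libraries ran up to 114, so that the groups overlapped (−0.22, SE 0.13, adjusted p = 0.54). The peak 238 bp from the upper end of the gene (chr3:135690859-135691731), with 64.3 ± 9.48 CPM in WT and 63.4 ± 8.68 in Flcn KO (SD, n = 4), had a log2 fold change of −0.03 (SE 0.12).

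Rel, which encodes c-Rel, had 9 peaks, of which 8 were tested, with log2 fold changes from −0.44 to 0.62. An unadjusted p below 0.05 was seen at 1 of the 8 (12.5%, against 12.9% of all tested peaks). The start peak (chr11:23770583-23771647) held 76.8, 67.8, 75.2 and 64.7 CPM in the WT libraries, in replicate order, and 61.0, 74.8, 54.7 and 61.7 in Flcn KO. Flcn KO replicate 2 was among the high WT values and the other Flcn KO libraries were below all WT libraries (−0.18, SE 0.12, adjusted p = 0.577). The lowest p was at a weaker peak 31.0 kb upstream (chr11:23801926-23802271), with 6.01 ± 1.86 CPM in WT and 9.34 ± 2.91 in Flcn KO (SD, n = 4; 0.62, SE 0.30, adjusted p = 0.384).

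The remaining subunit genes had few peaks. Relb, which encodes the subunit that pairs with the processed Nfkb2 product in the alternative pathway, had 3. The main one (chr7:19628351-19629110, 0.3 kb from an end of the gene) was the steadiest in WT: it held 89.9, 90.3, 89.8 and 93.5 CPM in WT and 97.8, 106, 85.5 and 88.0 CPM in Flcn KO. Its log2 fold change was 0.06 (SE 0.10), and the Flcn KO libraries spread to both sides of WT. A weak peak inside Relb (chr7:19619045-19619369) had 4.36 ± 1.87 and 7.02 ± 2.72 CPM (SD, n = 4; 0.73, SE 0.35, adjusted p = 0.374). Both Rela peaks lay above 0 (0.25, SE 0.27, at the start and 0.19, SE 0.23, 578 bp past the gene), and both Nfkb2 peaks below it (−0.14, SE 0.18, and −0.12, SE 0.27). None of these 4 had an unadjusted p below 0.05.

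Among the inhibitor genes and Traf1, 1 of 50 tested peaks was called, and 8 had an unadjusted p below 0.05 (5 up, 3 down), which is 2% and 16%, against 2.37% and 12.9% of all tested peaks. A log2 fold change above 0 was seen at 22 of the 50 peaks (44%, against 50.6%), with a median of −0.05. Nfkbia encodes the classical inhibitor that keeps the dimers in the cytoplasm and is made anew after they enter the nucleus. Its 12 peaks ran from −0.42 to 0.64, 0 were called by any of the 3 tools, and 2 (16.7%) had an unadjusted p below 0.05, both higher. The start peak (chr12:55492432-55492966) held 101, 76.1, 71.4 and 72.3 CPM in the WT libraries, in replicate order, and 78.2, 66.5, 83.8 and 77.7 in Flcn KO. WT replicate 1 was the highest and the others were intermixed (−0.07, SE 0.12, adjusted p = 0.875). The peak inside the gene 0.4 kb from that end had 70.3 ± 10.2 and 71.1 ± 6.40 CPM (SD, n = 4). The lowest p was at a weak peak 5.2 kb upstream (chr12:55497798-55498095), with 6.93 ± 1.46 CPM in WT and 10.9 ± 3.91 in Flcn KO (0.64, SE 0.28, adjusted p = 0.311), where Flcn KO replicate 2 reached 16.6 CPM.

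Nfkbiz, which encodes a nuclear protein of the same family that acts with NF-kB on a subset of genes, had 13 peaks with log2 fold changes between −0.48 and 0.79. None was called by edgeR, DESeq2 or limma-voom (0 of 13). An unadjusted p below 0.05 was seen at 3 (23.1%, 2 up and 1 down), against 12.9% of all tested peaks. The peak with the lowest p lies 858 bp outside an end of the gene (chr16:55809501-55810517) and held 8.72, 8.70, 8.16 and 6.40 CPM in WT replicates 1 to 4. In Flcn KO it held 11.5, 15.5, 12.4 and 13.7 CPM. The groups did not overlap, but the difference did not pass the test (0.72, SE 0.24, adjusted p = 0.125). A peak 40.6 kb from the gene (chr16:55770232-55770773) held 8.72, 22.1, 10.7 and 17.2 CPM in WT and 22.3, 23.5, 18.4 and 31.6 in Flcn KO, with WT replicate 2 inside the Flcn KO range. Its log2 fold change was 0.69 (SE 0.23, adjusted p = 0.129), and it was called without WT replicate 2 (adjusted p = 0.0338) and with the replicate number as a block (adjusted p = 0.0283). A peak at 55792287, 18.8 kb from the gene (0.79, SE 0.39, adjusted p = 0.392), was called without Flcn KO replicate 1 (adjusted p = 0.0365). These last peaks were chosen after their values were seen.

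The strongest Nfkbiz peak, inside the gene (chr16:55821984-55822632) held 92.4, 71.8, 84.1 and 83.1 CPM in the WT libraries, in replicate order, and 66.3, 76.7, 66.4 and 80.0 in Flcn KO, with overlap through WT replicate 2 (−0.20, SE 0.11, adjusted p = 0.458). Its neighbour at 55820906 had 34.3 ± 3.98 and 26.6 ± 3.79 CPM (SD, n = 4; −0.36, SE 0.16, adjusted p = 0.299). The next peak, at 55820174, had 27.5 ± 5.05 and 30.3 ± 5.25 CPM, with a log2 fold change of 0.13 (SE 0.17). Nfkbid encodes a nuclear inhibitor whose loss is known to reduce Treg cell development. Its 3 peaks each overlapped a listed start, and 0 were called by edgeR, DESeq2 or limma-voom or had an unadjusted p below 0.05. The third (chr7:30422954-30423373) held 11.6, 9.37, 12.2 and 13.8 CPM in WT and 8.41, 8.02, 8.45 and 9.14 in Flcn KO, without overlap between the groups (−0.47, SE 0.25, adjusted p = 0.439). The second, which has the NF-kB matches shown above, had 25 ± 4.07 and 24.7 ± 2.9 CPM (−0.01, SE 0.17).

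**Figure D3:**
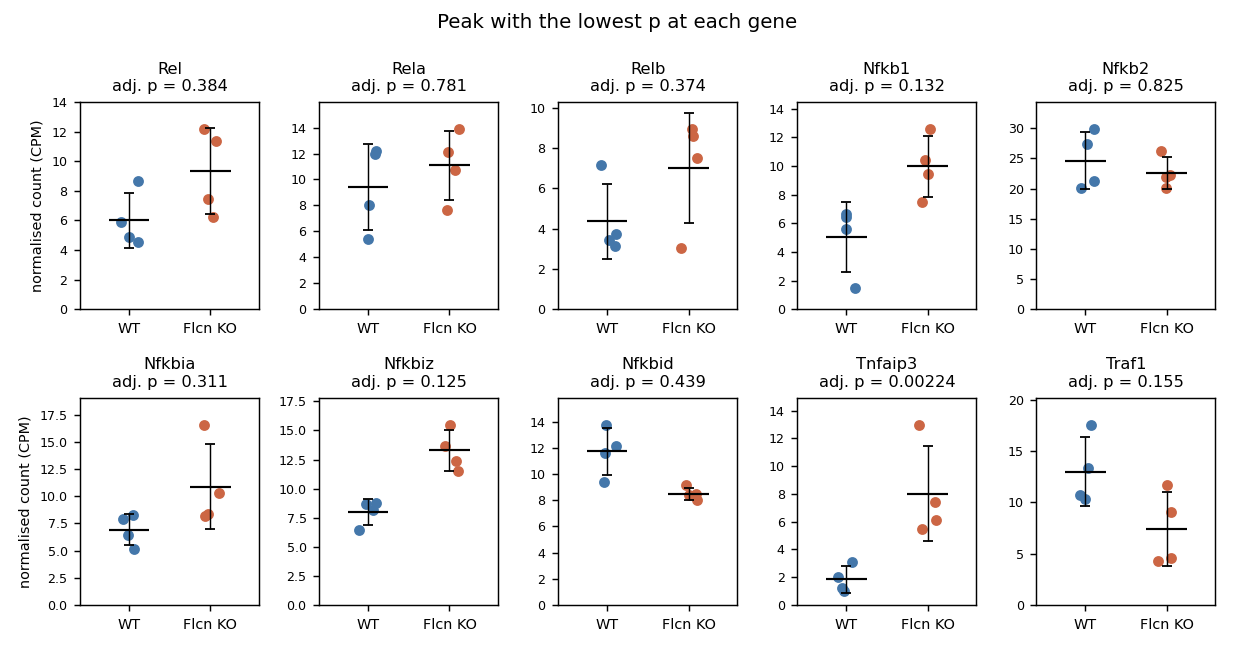
Normalised count (CPM, y axis from 0) in each WT and Flcn KO library at the peak with the lowest p of each gene, with bars for the mean and SD of 4 libraries. The groups are separate at Nfkb1, Nfkbiz, Nfkbid and Tnfaip3, and the adjusted p is below 0.05 at Tnfaip3 alone (0.00224).

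Tnfaip3 encodes a ubiquitin-editing enzyme that shuts down signalling to NF-kB. It had 15 peaks, of which 14 were tested, and the called peak (chr10:18995524-18995891, 368 bp wide) lies 5.0 kb beyond the 3′ end of the gene and 16.1 kb from the nearer listed start. It was hit by 6, 14, 8 and 4 counts in the WT libraries, in replicate order, and by 38, 23, 22 and 34 in those of Flcn KO. On the scaled library size this is 1.25, 3.12, 2.04 and 0.984 CPM in WT and 7.43, 6.15, 5.47 and 13 CPM in Flcn KO. Every Flcn KO library was above every WT library, and the highest value was in Flcn KO replicate 4, the shallowest library. Mean accessibility was 1.85 ± 0.961 CPM in WT and rose to 8 ± 3.4 CPM (SD, n = 4), with a fitted fold change of 4.19 (2.07 on the log2 scale, SE 0.41, adjusted p = 0.00224). Among the 644 peaks called higher in the whole table it ranked 77 by log2 fold change.

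The rise was called under each of the 16 alternative fits, with log2 fold changes of 1.77 to 2.44 and adjusted p-values of 0.000726 to 0.0261. The values are low: 1 of 4 WT libraries and all 4 Flcn KO libraries reached 10 counts, so the peak passed the filter through the Flcn KO libraries. The peak carried 0.215% to 0.663% of the Tnfaip3 counts of a WT library and 1.18% to 2.52% of those of a Flcn KO library. Neither of its neighbours passed the test. The next peak away from the gene, 2.1 kb on, had 3.14 ± 0.987 CPM in WT and 1.93 ± 1.6 in Flcn KO (−0.71, SE 0.54, adjusted p = 0.646). The next peak towards the gene, 3.5 kb on, had 3.92 ± 1.19 and 4.01 ± 2.09 CPM (0.05, SE 0.41, adjusted p = 0.978).

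At the rest of the Tnfaip3 locus the groups overlapped at every tested peak. The start peak (chr10:19015172-19015809) held 61.9, 46.8, 49.2 and 57.1 CPM in the WT libraries, in replicate order, and 48.5, 55, 49.2 and 54.1 in Flcn KO (−0.06, SE 0.12). The inner start (chr10:19011783-19012224) had 31.7 ± 3.90 and 34.6 ± 4.31 CPM (0.13, SE 0.15). The most accessible of the 92 peaks lies 46.6 kb upstream of the gene (chr10:19061977-19062858), at percentile 99.2 of all tested peaks per kb. It held 234, 240, 252 and 228 CPM in WT and 211, 287, 242 and 282 in Flcn KO, with WT inside the Flcn KO range (0.10, SE 0.09, adjusted p = 0.734). A second distal peak, 28.5 kb upstream, had 56.7 ± 3.87 and 54.2 ± 8.81 CPM (−0.07, SE 0.13). A peak inside the gene (chr10:19009293-19009765) had 23 ± 3.14 and 17.8 ± 2.4 CPM (−0.37, SE 0.19, edgeR adjusted p = 0.407). There Flcn KO replicate 3 lay within the WT range and the other Flcn KO libraries below it. On the 3′ side, a peak 35.6 kb beyond the gene (chr10:18964823-18965276) had 16.5 ± 4.53 and 11.9 ± 3.31 CPM (−0.51, SE 0.24, edgeR unadjusted p = 0.0395, adjusted p = 0.35). Assignment is by position, and which gene these distal sites act on was not tested.

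**Figure D4:**
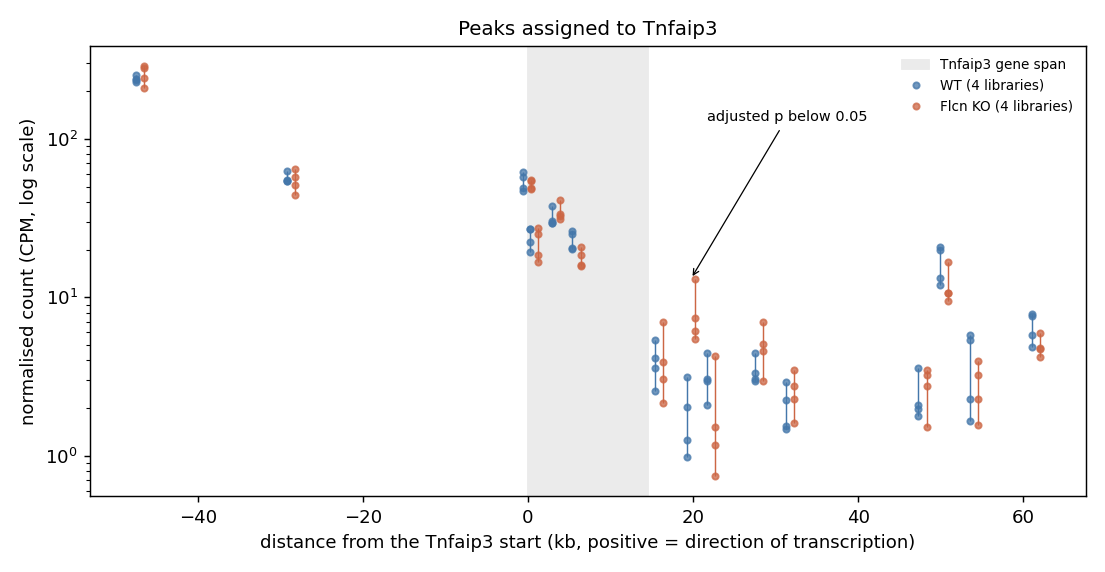
Normalised count (CPM, log scale, y axis) of the 15 Tnfaip3 peaks by distance from the start in the direction of transcription (x axis, kb), with 1 point per library and lines over the range of each group, drawn slightly apart. The groups are separate at the called peak past the 3′ end, where WT runs from 0.984 to 3.12 and Flcn KO from 5.47 to 13, and overlap at its neighbours.

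Traf1 encodes an adaptor of tumour necrosis factor receptors and is a known NF-kB target. Its 8 peaks had log2 fold changes between −0.81 and 0.12, and 0 were called by edgeR, DESeq2 or limma-voom. An unadjusted p below 0.05 was seen at 1 of the 8 (12.5%, against 12.9% of all tested peaks). That peak overlaps the start (chr2:34961656-34962020) and held 17.6, 13.4, 10.7 and 10.3 CPM in the WT libraries, in replicate order, and 4.30, 9.08, 11.7 and 4.57 in Flcn KO. Flcn KO replicate 3 lay within the WT range and the others below it (−0.81, SE 0.29, adjusted p = 0.155). Over the alternative fits the adjusted p ran from 0.0547 to 0.451. The peak 1.1 kb upstream had 22.5 ± 4.65 and 19.6 ± 1.45 CPM (SD, n = 4; −0.21, SE 0.19). The strongest Traf1 peak, 1.7 kb upstream (chr2:34963447-34963968), had 39.5 ± 6.48 and 42.6 ± 9.69 CPM (0.12, SE 0.15).

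Counts were also summed over all peaks of a gene, which gives each gene 1 value per library and lets peaks that move in opposite directions cancel. Of the 10 genes, 0 were called by edgeR, DESeq2 or limma-voom and 0 had an unadjusted p below 0.05; over all 13486 genes tested, 1.88% were called by edgeR and 12.6% had an unadjusted p below 0.05. The log2 fold changes of the sums ran from −0.12 for Nfkb2 (SE 0.14) to 0.23 for Rela (SE 0.17). Nfkb1 rested on the most peaks and held 538 ± 58.1 CPM in WT and 582 ± 46.7 in Flcn KO (SD, n = 4; 0.11, SE 0.08, adjusted p = 0.631). Relb had 111 ± 2.47 and 120 ± 12.2 CPM (0.11, SE 0.09). The Tnfaip3 sum was 495 ± 13.7 and 509 ± 42.7 CPM (0.04, SE 0.08), with its called peak included. The sums of Nfkbia (0.06, SE 0.08), Nfkbiz (−0.04, SE 0.08) and Rel (−0.05, SE 0.08) differed by less than their SE.

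**Figure D5:**
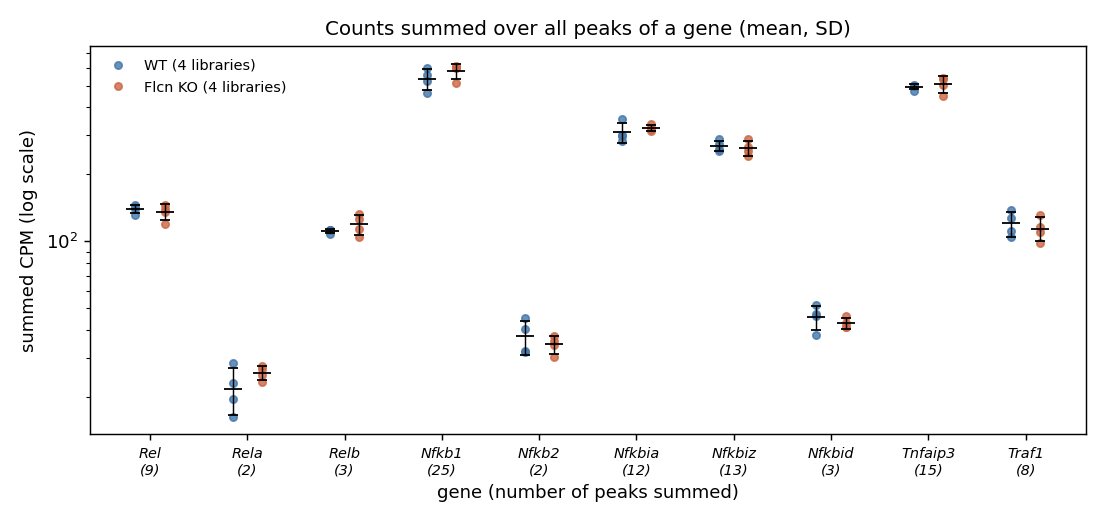
Summed CPM over all peaks of a gene (y axis, log scale) in each library, by gene and number of peaks (x axis), with bars for the mean and SD of 4 libraries per group. The points of WT and Flcn KO overlap at all 10 genes.

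Other genes of the pathway were described in the same way. Among signalling genes, from receptor adaptors to the kinases that mark the inhibitors for breakdown, 0 of 113 tested peaks rose, 2 fell and 111 were not called. The share called was 1.77%, against 2.37% of all tested peaks. The median log2 fold change was 0.01. An unadjusted p below 0.05 was seen at 14 (12.4%, 5 up and 9 down), against 12.9% of all tested peaks. Tbk1 encodes a kinase related to those that phosphorylate the inhibitors. A peak 25.1 kb from it (chr10:121520894-121521322) fell from 28.2 ± 4.53 to 15.7 ± 4.76 CPM (SD, n = 4; −0.82, SE 0.20, adjusted p = 0.0153). A peak 36.4 kb from Tab2, which encodes an adaptor of the upstream kinase TAK1, fell to 4.32 ± 1.30 CPM, from 10.6 ± 1.80 in WT (−1.27, SE 0.30, adjusted p = 0.011). Leaving out WT replicate 2, Flcn KO replicate 3 or Flcn KO replicate 4 ended the Tbk1 call (adjusted p up to 0.11), and leaving out WT replicate 1 that of Tab2 (0.0672).

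Among the other inhibitor genes 1 of 72 tested peaks rose, 1 fell and 70 were not called, with a median of 0.01. The share called was 2.78%, against 2.37% of all tested peaks. An unadjusted p below 0.05 was seen at 10 (13.9%, 7 up and 3 down), against 12.9% of all tested peaks. Otulin encodes an enzyme that removes linear ubiquitin chains and so restrains NF-kB signalling. A peak inside it (chr15:27605229-27605729) held 10.4, 19.6, 18.4 and 21.2 CPM in the WT libraries, in replicate order, and 71.4, 58.2, 77.1 and 66.3 in Flcn KO. All Flcn KO libraries were far above all WT libraries (1.98 on the log2 scale, SE 0.16, adjusted p = 3.68e-10; at most 1.59e-08 over the alternatives). A peak inside Nfkbil1, a gene named for its likeness to the inhibitor family, fell to 2.37 ± 1.02 CPM, from 7.61 ± 3.5 in WT (−1.63, SE 0.40, adjusted p = 0.0155). The Nfkbil1 peak was not called with limma-voom, nor when any of WT replicates 1 and 2 and Flcn KO replicates 3 and 4 was left out (adjusted p up to 0.143).

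Among known target genes 1 of 106 tested peaks rose, 1 fell and 104 were not called, with a median of 0.03. The share called was 1.89%, against 2.37% of all tested peaks. An unadjusted p below 0.05 was seen at 11 (10.4%, 9 up and 2 down), against 12.9% of all tested peaks. A peak 16.5 kb from Il2ra, which encodes the high-affinity interleukin-2 receptor chain and is also among the Treg markers, rose from 8.17 ± 1.63 to 16.1 ± 3.89 CPM (SD, n = 4; 0.99, SE 0.24, adjusted p = 0.018). Leaving out any of WT replicates 1 and 2 and Flcn KO replicates 1 and 3 ended this call (adjusted p up to 0.1). A peak inside Tnfrsf9, which encodes the co-stimulatory receptor 4-1BB, fell to 2.63 ± 1.74 CPM, from 7.23 ± 1.14 in WT (−1.40, SE 0.39, adjusted p = 0.0434), a call lost with limma-voom and on leaving out any 1 library other than Flcn KO replicate 1 (adjusted p up to 0.168). Over the 3 lists 6 of 291 tested peaks were called (2.06%), near the 2.37% of all tested peaks. The count was 3 without WT replicate 1 or 2, and 2 without Flcn KO replicate 3. Of the 291 peaks, 35 (12%, 21 up and 14 down) had an unadjusted p below 0.05, against 12.9% of all tested peaks.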

How the data were processed

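ATAC-seq was measured in 4 WT and 4 Flcn KO libraries. The authors deposited raw counts per peak over 57199 shared peaks in mm10, without normalization. The tools named, per the submitters' processing notes, are MACS2 2.1.1, bedtools 2.25.0, BWA 0.7.16, SAMtools 1.9, Trimmomatic 0.36 and Picard 2.9.4. The order of these tools, any duplicate removal or transposase shift, and whether libraries were pooled for peak calling were not given in the sources used here. Between 88.7% and 92.7% of counts in a library were even, as when both ends of a read pair are counted, so errors rest on the spread between libraries. No replicate pair was a copy (chi-square per peak of 2.18 to 3.56).

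Peak starts were converted to count from 1. Genes came from a RefSeq table of GRCm38.p6. In R 4.3.3, edgeR 4.0.16 filtered low peaks (filterByExpr, minimum count 10, leaving 47859 or 83.7%), scaled libraries by TMM and ran the quasi-likelihood test on genotype. The SE is the fitted log2 change over the root of F. Alternatives were other scalings and filters, DESeq2 1.42.0, limma-voom (limma 3.58.1), a replicate block, a 10000 bp assignment and leaving out each library. Scripts were tested on simulated data.

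Members, lists and rules were chosen with earlier results of these data known. Named member peaks were those called, each gene's peak of highest level and of lowest p, start peaks (or those within 1000 bp of a gene end) and, added after seeing values, 2 called in an alternative alone. Called pathway peaks were named too. Other peaks described beside these were chosen after their values were seen.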

Additional observations from a re-analysis of the deposited data

Results flagged for a closer look

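In 9 of the 78 sets of 4 libraries checked (2 groups for each of 29 named member peaks and 10 sums), 1 library stood far from the other three; chance alone gives about 1 in 20 such sets, and sums share counts with their peaks. WT replicate 1 was the highest at the Nfkbia start (101 CPM, others 71.4 to 76.1), at the Rela peak past the gene (14.9, others 9.69 to 10.3) and at the inner Nfkb2 start (13.3, others 10.1 to 10.3). WT replicate 2 was the highest at the inner Tnfaip3 start (37.5, others 29.3 to 30.3) and WT replicate 3 at the weak Relb peak inside the gene (7.14, others 3.12 to 3.74). WT replicate 4 was the highest at the main Relb peak (93.5, others 89.8 to 90.3) and the lowest in the Tnfaip3 sum (475, others 500 to 505). In Flcn KO, replicate 4 was the lowest at the strongest Traf1 peak (28.2, others 45.4 to 48.5), and replicate 2 was the lowest in the Nfkb1 sum (512, others 601 to 611).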

How the results depend on the processing

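The count of called member peaks was 1 in the main fit and 1 under the other scalings and filters, DESeq2, limma-voom and assignment within 10000 bp; it was 2 with the replicate block, and 1 to 2 when single libraries were left out. The called Tnfaip3 peak was in each of these counts. No gene sum of the 10 was called under any alternative. The called peaks over the whole table, 1133, came to 665 without WT replicate 2 and 1797 without Flcn KO replicate 1, the lowest and highest with a library left out. The pathway lists' 6 calls came to 3 with assignment within 10000 bp, 3 without WT replicate 1 or 2, 2 without Flcn KO replicate 3, and 2 to 8 over all left-out libraries. Same-numbered libraries showed little shared deviation (correlations of deviations from the group means of −0.05 to 0.08). Between differently numbered libraries the correlations ran from −0.15 (WT replicate 3 with Flcn KO replicate 1) to 0.18 (WT replicate 2 with Flcn KO replicate 1). These values cannot tell whether same-numbered libraries were handled together, so whether the replicate block matches a pairing in the design is not known. With the block, the called peaks over the whole table came to 1375. Of 39 results of the members (29 named peaks and 10 sums), 27 kept their direction and side of the threshold under all alternatives run, and 10 uncalled ones near 0 changed sign when a library was left out. Their log2 fold changes then ran from −0.13 to 0.01 (Tnfaip3 start), −0.12 to 0.06 (Nfkbia start), −0.33 to 0.06 (inner Nfkb2 start), −0.11 to 0.07 (Nfkb1 peak near the upper end), −0.21 to 0.26 (Relb peak at the end), −0.01 to 0.17 and −0.10 to 0.09 (first and second Nfkbid starts), and, for sums, −0.09 to 0.01 (Rel), −0.08 to 0.00 (Nfkbiz) and −0.15 to 0.01 (Traf1). The cause was not tested. Of the 6 called pathway peaks, 5 lost their call in an alternative, as given beside each, and the Otulin peak did not. Weak peaks of under about 10 counts per library limit what can be seen, and 2 member peaks were not tested for that reason.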
